A study of Homo sapiens with 24 samples.

Results

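The genes described here are the translation factors of the EIF families, taken as every row of the deposited count tables whose symbol begins with EIF and a digit from 1 to 6, without the EIF2AK kinases and without hyphenated read-through symbols. The rule found 51 genes of the 25168 in the tables, EIF4EBP1 to EIF4EBP3 among them. They were followed in 24 bulk RNA-seq libraries of PANC1 and BXPC3, established human lines of pancreatic ductal adenocarcinoma, with 3 libraries in each of 8 groups. In each line the groups were cells given SR4 at 5 uM, cells given lonidamine at 300 uM, cells given both compounds, and cells given vehicle, all for 24 h in low-glucose medium with serum. SR4 is named by its code only, and lonidamine is known as an inhibitor of lactate and pyruvate transport. The series is presented as a dual therapy aimed at cellular bioenergetics. The labels give no separate doses for the combination, no engineered allele in either line, and nothing on whether the 3 libraries of a group came from separate cultures. The p-values therefore measure the spread between these libraries, which may be technical. Positions of genes are those of the deposited tables, with GRCh38 named in the submitters' processing notes. SR4, lonidamine and the combination were each set against the same 3 vehicle libraries of a line, so the 3 comparisons are not independent.

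Initiation of translation begins when eIF2, loaded with GTP and the initiator tRNA, joins the small ribosomal subunit together with eIF1, eIF1A, eIF3 and eIF5. The cap-binding eIF4E, the scaffold eIF4G and the helicase eIF4A bring this complex to the messenger RNA, and scanning to the start codon follows. Cells adjust the process mainly at a pair of steps: phosphorylation of eIF2 blocks its exchange factor eIF2B, and unphosphorylated 4E-BP proteins, the products of the EIF4EBP genes, hold eIF4E away from eIF4G. The libraries measured messenger RNA only, so protein level, phosphorylation and translation were outside what could be seen.

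The libraries held between 8873041 and 11822495 counts in PANC1 and between 9142433 and 11470973 in BXPC3. SMAD4 had 0 counts in every BXPC3 library and 51.4 ± 1.89 CPM (counts scaled to a common library size, SD, n = 3) in PANC1 vehicle libraries. Vimentin was high in PANC1 and E-cadherin in BXPC3, as is known of the lines. The 6 epithelial markers summed to 1839.5 to 2103 CPM with SR4, 978 to 1080.4 with lonidamine and 842 to 886 with the combination in PANC1, against 3641 to 3807 with vehicle. In BXPC3 their sums were 4908 to 5075, 4450.3 to 4628 and 3524 to 3556 CPM in that order, against 6009 to 6517 with vehicle. The 5 immune markers, nearly all of whose counts were CD68, summed to 186 to 219.6 CPM with SR4, 141 to 144 with lonidamine and 207 to 216 with the combination in PANC1, against 119.6 to 127 with vehicle. In BXPC3 they summed to 30.2 to 33.5, 25.9 to 28.2 and 36.2 to 39.4 CPM, against 18.3 to 19.9. The 4 fibroblast markers summed to 11.8 to 13.6 CPM with SR4, 30.3 to 33.98 with lonidamine and 15.9 to 17.2 with the combination in PANC1, against 81.6 to 86.4 with vehicle, with DCN at 0 throughout. In BXPC3 their sums were 13.7 to 16.8, 12.5 to 15.8 and 18.1 to 25.4 CPM, against 11.5 to 13.2. The 4 endothelial markers summed to 1.10 to 1.73 CPM with SR4, 0.291 to 0.499 with lonidamine and 0 to 0.891 with the combination in BXPC3, against 9.13 to 10.8 with vehicle, and stayed under 1 CPM in PANC1, where CDH5 was at 0. The 4 acinar markers stayed under 2 CPM in every group, and 3 of them were at 0 in each line. The part of these markers in the results below was not tested.

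As a share of all counts, the EIF genes made up 1.68% ± 0.00835 with SR4, 1.72% ± 0.0116 with lonidamine and 1.62% ± 0.0208 with the combination in PANC1, against 1.72% ± 0.00849 with vehicle (SD, n = 3). In BXPC3 they made up 1.21% ± 0.00456, 1.23% ± 0.00283 and 1.24% ± 0.0115 with the same 3 treatments, against 1.18% ± 0.00596 with vehicle. The share thus lay lower under SR4 and the combination in PANC1 and higher in all treated groups of BXPC3, each without overlap with the vehicle libraries. The sum weighs genes by their counts: EIF4G2 averaged 4400 CPM over the PANC1 libraries and EIF4G1, the next highest, 1189. EIF4G2 changed there by -0.46 log2 with SR4 and -0.94 with the combination, where more members rose than fell. The share therefore gives no direction for the family. In bulk RNA, fewer cells of one kind and less RNA per cell cannot be told apart.

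Levels in vehicle-treated cells were compared between genes as CPM per kilobase of the gene length deposited with the counts, which can exceed that of the main transcript. EIF4G2, a relative of eIF4G that lacks the eIF4E-binding region, stood first in PANC1 at 638 CPM per kb and second in BXPC3 at 192. EIF5A, which keeps elongation moving through difficult peptide bonds, stood at 208 CPM per kb in PANC1 and was first in BXPC3 at 255. EIF3K, a small subunit of eIF3, reached 376 CPM per kb in PANC1 and 80.9 in BXPC3. At the low end, EIF4E had 5.82 CPM per kb in PANC1 and 5.44 in BXPC3, far under its partner EIF4G1 at 189 and 136. The levels of EIF4E are those of a row with a deposited length of 14.1 kb, which lowers a value per kilobase.

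**Figure D1:**
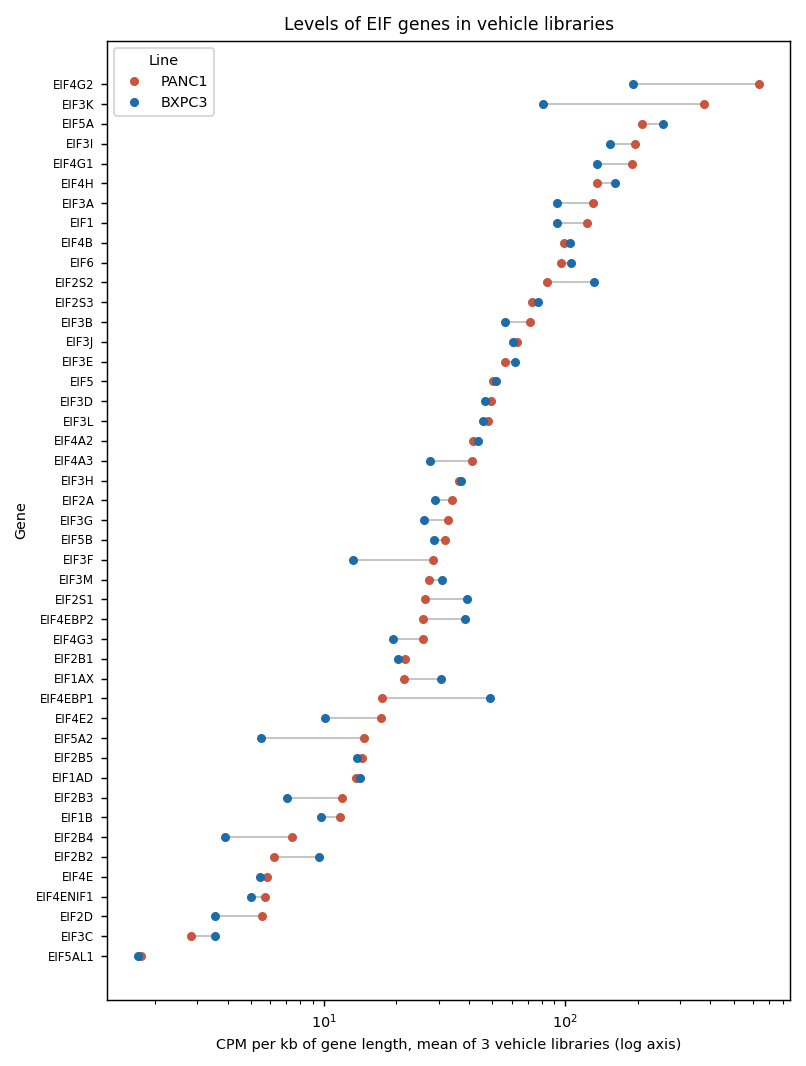
Level of each EIF gene tested in both lines, as mean CPM per kb of deposited gene length over 3 vehicle libraries, on a log axis. Red points are PANC1 and blue points BXPC3, and the widest gaps belong to EIF3K, EIF4G2, EIF4EBP1 and EIF5A2.

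Between the lines under vehicle, 17 of 46 tested EIF genes were higher in PANC1 and 19 lower, where 41.3% and 43% of all genes were (edgeR quasi-likelihood F-test, Benjamini-Hochberg, all 24 libraries). Scaled by total count only, 19 were higher and 15 lower. EIF3K had 1018, 1001 and 1025 CPM in PANC1 and 248, 229.6 and 227 CPM in BXPC3, a log2 difference of 2.11 ± 0.041 (SE, adjusted p = 2.69e-34, edgeR quasi-likelihood F-test, Benjamini-Hochberg). EIF4G2 had 5411, 5356 and 5243 CPM in PANC1 and 1689, 1707 and 1779 CPM in BXPC3, a log2 difference of 1.63 ± 0.030. For neither gene did the libraries of the lines overlap. EIF4EBP1, the main 4E-BP gene, had 18.5, 18.2 and 17.4 CPM in PANC1 and 54.3, 54.98 and 54.2 CPM in BXPC3, a log2 difference of -1.60 ± 0.066. EIF5A2, the less abundant paralog of EIF5A, was higher in PANC1 by 1.32 ± 0.065 log2, and EIF2S2, the beta subunit of eIF2, differed by -0.74 ± 0.038 log2. EIF4E3, a cap-binding paralog of EIF4E, had 0 counts in the 3 PANC1 vehicle libraries and 4.25 CPM on average in BXPC3. Against a floor of 3 counts per library, that made it at least 13-fold lower in PANC1.

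A filter on low counts left 45 of the 51 genes to test in PANC1 and 46 in BXPC3. EIF1AY, EIF3CL, EIF4A1, EIF4E1B and EIF4EBP3 were not tested in either line, and EIF4E3 not in PANC1. The treatments moved most of the tested EIF genes in both lines, as they did most of all tested genes. In PANC1, 23 of 45 tested members rose and 11 fell with SR4, where 35% and 36.7% of all 12514 tested genes did. With lonidamine 14 rose and 22 fell, against 35% and 34.2% of all genes, and scaling by total count only gave 17 and 18. The combination raised 27 and lowered 12, against 40.1% and 40.9%. In BXPC3, 19 of 46 rose and 17 fell with SR4, where 33.4% and 33.9% of all 12920 tested genes did. Lonidamine raised 21 and lowered 15 there (34.8% and 32.7% of all genes), and the combination raised 23 and lowered 19 (39.7% and 39.5%). The share of members that rose with the combination in PANC1 lay above that of all genes, and in BXPC3 the shares lay closer to it. All these calls are at an adjusted p under 0.05 by edgeR quasi-likelihood F-test, Benjamini-Hochberg.

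With either compound alone, most of the called changes were under 0.5 log2, while with the combination in PANC1 most were not. At a change of at least 0.5 log2, 10 members rose and 5 fell with SR4 in PANC1, where 19.7% and 21.9% of all genes did. The counts with lonidamine in PANC1 were 4 up and 4 down (17.9% and 18.2% of all genes), and with the combination 17 up and 8 down (27.7% and 29.1%). In BXPC3 they were 4 up and 2 down with SR4 (17.5% and 17.2%), 5 up and 0 down with lonidamine (17.1% and 18.5%), and 12 up and 9 down with the combination (26.6% and 27.4%). The median change of the members was 0.15, -0.10 and 0.26 log2 with SR4, lonidamine and the combination in PANC1, beside medians of -0.019, 0.0095 and -0.020 over all genes. In BXPC3 the members' medians were 0.010, 0.094 and 0.12, beside 0.0086, 0.026 and -0.00096. Wherever 3 changes are given for a line in the following text, they stand in the order SR4, lonidamine, combination.

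**Figure D2:**
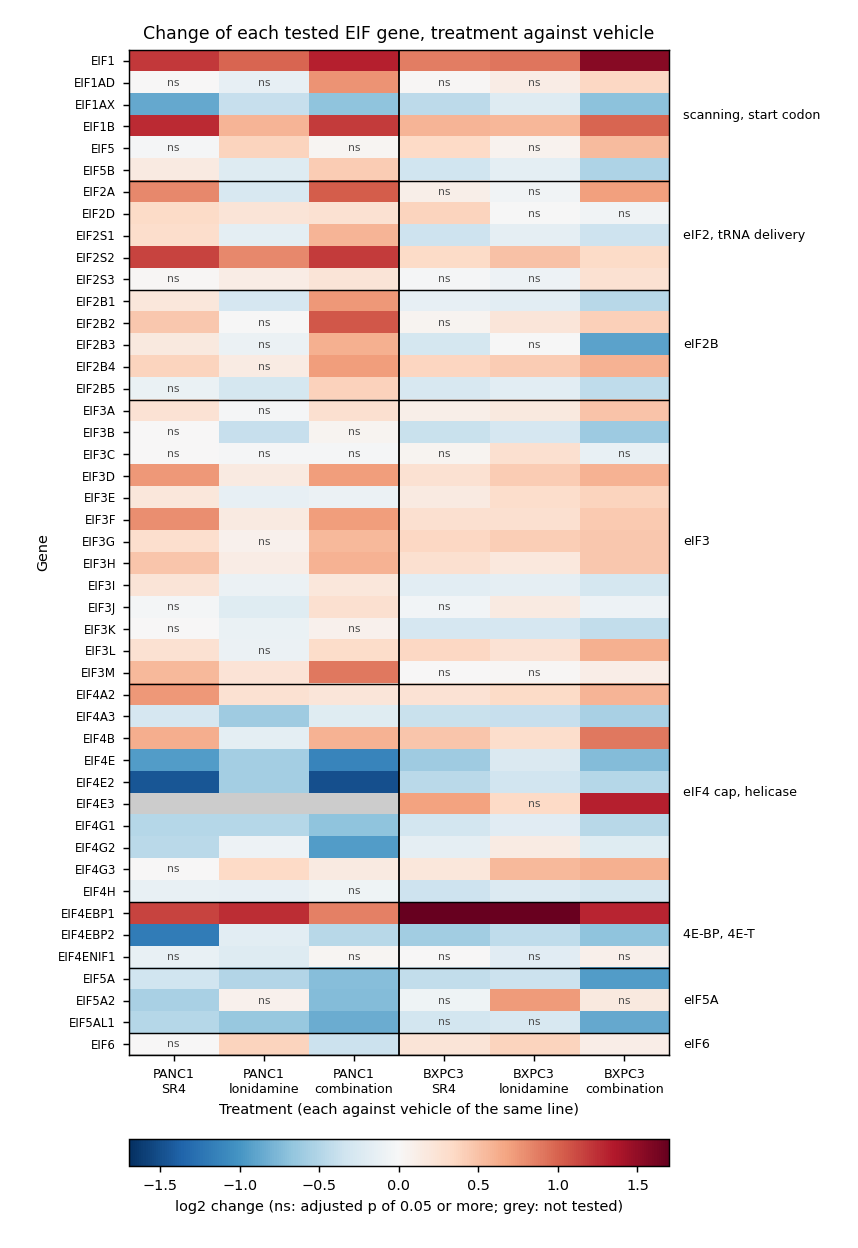
Log2 change of each tested EIF gene in each treatment against vehicle of the same line, with genes grouped by role. Red is higher and blue lower in treated cells, "ns" marks an adjusted p of 0.05 or more, and grey marks a gene not tested. EIF1, EIF1B and EIF4EBP1 are red in all 6 columns and EIF4E and EIF4E2 blue in all 6.

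The EIF genes that answered alike to every treatment were 15 of the 45 tested in both lines. EIF1, EIF1B, EIF2S2, EIF3D, EIF3F, EIF3H, EIF4A2 and EIF4EBP1 rose in all 6 comparisons, 8 of 45 where 12.3% of all genes did. EIF1AX, EIF4A3, EIF4E, EIF4E2, EIF4EBP2, EIF4G1 and EIF5A fell in all 6, 7 of 45 where 12.5% of all genes did. Both shares were close to the share among all genes. Another 13 members were called in both directions in different comparisons, and the other 17 were called in 1 direction in some of the 6.

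**Figure D3:**
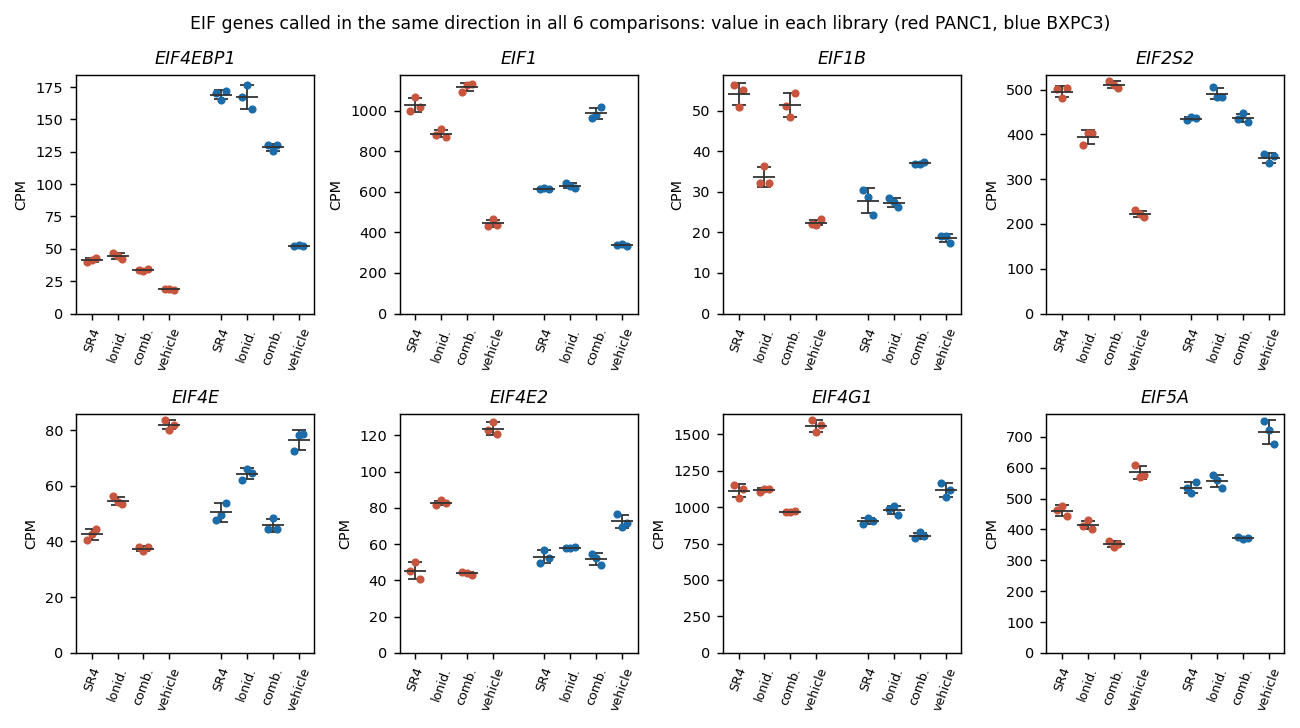
CPM of 8 EIF genes in each of the 24 libraries, scaled within each line, with PANC1 in red and BXPC3 in blue. Bars are means with SD over 3 libraries, and in each line the treated groups of EIF4EBP1, EIF1, EIF1B and EIF2S2 lie above vehicle and those of EIF4E, EIF4E2, EIF4G1 and EIF5A below it.

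EIF4EBP1 encodes the repressor 4E-BP1 and is a known target of the stress transcription factor ATF4. Its levels in PANC1 were 39.6, 41.6 and 42.8 CPM with SR4, 46.4, 44.5 and 42.3 CPM with lonidamine and 33.8, 32.6 and 34.6 CPM with the combination, against 19.1, 18.7 and 17.98 CPM with vehicle. In BXPC3 they were 171, 165 and 172 CPM with SR4, 168, 177 and 158 CPM with lonidamine and 129.99, 125 and 129.9 CPM with the combination, against 52.3, 52.6 and 52.2 CPM with vehicle. Every treated library lay above every vehicle library of its line, and the combination lay below either compound alone. The log2 changes in PANC1 were 1.15 ± 0.075 with SR4, 1.25 ± 0.073 with lonidamine and 0.86 ± 0.076 with the combination (SE, largest adjusted p = 4.25e-11, edgeR quasi-likelihood F-test, Benjamini-Hochberg). In BXPC3 they were 1.69 ± 0.048, 1.68 ± 0.048 and 1.29 ± 0.050 (largest adjusted p = 1.08e-18, edgeR quasi-likelihood F-test, Benjamini-Hochberg). It was the largest rise among the members with each single compound in BXPC3.

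Its paralog EIF4EBP2 went the other way in all 6 comparisons. EIF4EBP2 had 82.2, 80.9 and 84.4 CPM with SR4, 168, 168 and 161 CPM with lonidamine and 132, 134 and 138 CPM with the combination, against 188, 197 and 179 CPM with vehicle in PANC1. Its BXPC3 levels were 189, 183 and 185 CPM with SR4, 211, 209 and 206 CPM with lonidamine and 168, 180.1 and 174 CPM with the combination, against 269, 278 and 294 CPM with vehicle. The fall was deepest with SR4 in PANC1, at -1.19 ± 0.044 log2, and shallowest with lonidamine there, at -0.18 ± 0.040 log2 (adjusted p = 0.000248, edgeR quasi-likelihood F-test, Benjamini-Hochberg). Per kilobase, EIF4EBP2 over EIF4EBP1 stood at 0.295 ± 0.0101 with SR4, 0.549 ± 0.0155 with lonidamine and 0.590 ± 0.0153 with the combination, against 1.49 ± 0.0540 with vehicle in PANC1. The same ratio in BXPC3 was 0.162 ± 0.00229, 0.184 ± 0.00924 and 0.20 ± 0.0108, against 0.790 ± 0.0377 with vehicle (SD, n = 3). Per kilobase, EIF4EBP2 was thus the higher of the pair in PANC1 vehicle libraries, and EIF4EBP1 in every treated group and in BXPC3 vehicle libraries. In CPM, EIF4EBP2 was the higher in every group of both lines. Which of the pair stands higher therefore rests on the deposited lengths, 7.25 kb for EIF4EBP2 and 1.07 kb for EIF4EBP1. EIF4ENIF1, which encodes the eIF4E transporter 4E-T, fell by 0.22 log2 with lonidamine in PANC1 and did not pass the test in the other 5 comparisons, with values between -0.19 and 0.091. EIF4EBP3, the third repressor, was not tested, with 6 counts over 12 libraries in PANC1 and 1 in BXPC3. Its row overlaps a read-through gene with ANKHD1.

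EIF4E, the cap-binding gene, fell in all 6 comparisons in which EIF4EBP1 rose. EIF4E (chromosome 4, 98871684 to 98930637, minus strand) had 40.5, 42.5 and 44.6 CPM with SR4, 56.3, 54.1 and 53.6 CPM with lonidamine and 37.8, 36.5 and 37.99 CPM with the combination, against 83.5, 80.2 and 81.9 CPM with vehicle in PANC1. BXPC3 libraries held 47.7, 49.6 and 53.99 CPM with SR4, 62.2, 66.1 and 64.7 CPM with lonidamine and 44.4, 48.5 and 44.5 CPM with the combination, against 72.3, 78.3 and 78.7 CPM with vehicle. No treated library reached the vehicle range in either line. The log2 changes were -0.94 ± 0.055, -0.58 ± 0.052 and -1.13 ± 0.055 with SR4, lonidamine and the combination in PANC1 (largest adjusted p = 7.89e-11, edgeR quasi-likelihood F-test, Benjamini-Hochberg) and -0.60 ± 0.058, -0.25 ± 0.057 and -0.74 ± 0.060 in BXPC3 (largest adjusted p = 0.00039, edgeR quasi-likelihood F-test, Benjamini-Hochberg). The ratio of EIF4EBP1 to EIF4E per kilobase was 12.8 ± 0.143 with SR4, 10.7 ± 0.256 with lonidamine and 11.8 ± 0.139 with the combination in PANC1, against 2.99 ± 0.0920 with vehicle. In BXPC3 it was 44.2 ± 2.67, 34.2 ± 1.86 and 36.9 ± 2.61, against 9.02 ± 0.424. In neither line did a treated group overlap with vehicle, though the lonidamine and combination groups of BXPC3 overlapped with each other. With 3 libraries against 3, the smallest two-sided p of an exact permutation test is 0.1, so no p is given for the ratio.

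EIF4E2 (chromosome 2, 232550052 to 232583644, plus strand) encodes 4EHP, a cap-binding protein that takes no part in normal initiation and represses selected messages. It had 45.2, 49.99 and 40.6 CPM with SR4, 81.5, 84.2 and 82.6 CPM with lonidamine and 44.8, 43.96 and 42.8 CPM with the combination, against 123, 128 and 121 CPM with vehicle in PANC1. In BXPC3 it had 49.9, 57.02 and 52.1 CPM with SR4, 57.97, 57.8 and 58.6 CPM with lonidamine and 54.6, 52.2 and 48.3 CPM with the combination, against 76.7, 69.4 and 71.9 CPM with vehicle. Its change of -1.50 ± 0.056 log2 with the combination was the deepest fall of any member in PANC1 (adjusted p = 1.54e-19, edgeR quasi-likelihood F-test, Benjamini-Hochberg), and SR4 alone gave -1.45 ± 0.057. In BXPC3 the changes were -0.46, -0.32 and -0.49 log2. The difference between the lines was -1.0 ± 0.085 log2 with SR4 and -1.05 ± 0.086 with the combination (PANC1 minus BXPC3, adjusted p = 9.97e-13 and 1.46e-13, edgeR quasi-likelihood F-test, Benjamini-Hochberg). EIF4E3 had 6.53, 6.0 and 7.07 CPM with SR4, 5.99, 5.24 and 4.32 CPM with lonidamine and 10.9, 9.91 and 9.87 CPM with the combination, against 3.56, 4.0 and 4.70 CPM with vehicle in BXPC3. It rose there by 0.68 ± 0.17 log2 with SR4 and 1.32 ± 0.16 with the combination, and lonidamine gave 0.34 ± 0.17 without passing the test (adjusted p = 0.0836, edgeR quasi-likelihood F-test, Benjamini-Hochberg). In PANC1 EIF4E3 had 7 counts in 12 libraries and was not tested, and EIF4E1B, an oocyte form, was not tested in either line.

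EIF4G1 (chromosome 3, 184314495 to 184335358, plus strand), the scaffold that joins eIF4E, eIF4A and eIF3, had 1150.01, 1060.04 and 1127 CPM with SR4, 1105, 1126 and 1124 CPM with lonidamine and 965, 966 and 975 CPM with the combination, against 1597, 1516 and 1561 CPM with vehicle in PANC1. Its BXPC3 levels were 885, 924 and 907 CPM with SR4, 986, 1004 and 947 CPM with lonidamine and 785, 827 and 798 CPM with the combination, against 1168, 1072 and 1115 CPM with vehicle. It fell in all 6 comparisons, by 0.69 log2 with the combination in PANC1 and by 0.48 in BXPC3 (adjusted p = 4.28e-17 and 6.8e-13, edgeR quasi-likelihood F-test, Benjamini-Hochberg). EIF4G3, its less abundant paralog, rose with lonidamine in both lines, by 0.34 ± 0.043 log2 in PANC1 and 0.55 ± 0.041 in BXPC3. Per kilobase, EIF4G3 over EIF4G1 was 0.243 ± 0.0164 with the combination and 0.136 ± 0.00147 with vehicle in PANC1, and 0.303 ± 0.0113 and 0.143 ± 0.00623 in BXPC3. EIF4G2, which takes part in translation without eIF4E, had 4035, 4088 and 3934 CPM with SR4, 5115, 5248 and 5255 CPM with lonidamine and 2838, 2786 and 2972 CPM with the combination, against 5590.03, 5518 and 5424 CPM with vehicle in PANC1. It fell there by 0.94 log2 with the combination and by 0.46 with SR4, and by 0.082 with lonidamine. In BXPC3 its changes were -0.15, 0.14 and -0.20 log2, and the combination response differed between the lines by -0.78 ± 0.042 log2 (adjusted p = 4.48e-19, edgeR quasi-likelihood F-test, Benjamini-Hochberg).

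Among the helicase genes, EIF4A2 rose in all 6 comparisons, between 0.21 log2 with the combination in PANC1 and 0.73 with SR4 there. EIF4A2 had 435, 405 and 431 CPM with SR4, 322, 302 and 293 CPM with lonidamine and 281, 302 and 302 CPM with the combination, against 243, 266 and 256 CPM with vehicle in PANC1. BXPC3 libraries held 327, 314 and 313 CPM with SR4, 327, 318 and 359.7 CPM with lonidamine and 406, 390.2 and 399.8 CPM with the combination, against 251, 286 and 268 CPM with vehicle. The PANC1 libraries of the combination thus lay close to those of vehicle, while SR4 alone stood well above both. EIF4A3, the helicase of the exon junction complex, fell in all 6 comparisons, between -0.60 log2 with lonidamine and -0.21 with the combination, both in PANC1. EIF4B, a cofactor of the helicase, rose by 0.61 ± 0.033 log2 with SR4 and 0.59 ± 0.033 with the combination in PANC1, and by 0.47 ± 0.030 and 0.90 ± 0.030 in BXPC3. With lonidamine EIF4B fell by 0.16 log2 in PANC1 and rose by 0.29 in BXPC3. EIF4H, another cofactor, changed by -0.13, -0.14 and -0.072 log2 in PANC1, the last without passing the test, and by -0.35, -0.23 and -0.29 in BXPC3. EIF4A1, usually an abundant member of the family, had 54 counts over 12 libraries in PANC1 and 84 in BXPC3 and was not tested. Its row overlaps the read-through gene SENP3-EIF4A1 and CD68 on the same strand, and the counts of overlapping genes depend on the counting method, not stated in the labels.

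EIF1, which keeps the scanning ribosome from starting at a wrong codon, was among the most raised members in both lines. EIF1 had 996, 1064 and 1016 CPM with SR4, 881, 907 and 872 CPM with lonidamine and 1090.4, 1127 and 1129 CPM with the combination, against 433, 464 and 437 CPM with vehicle in PANC1. In BXPC3 it had 616, 619.5 and 611 CPM with SR4, 643, 629 and 618 CPM with lonidamine and 962, 978 and 1017 CPM with the combination, against 338, 340.3 and 331 CPM with vehicle. The log2 changes were 1.21 ± 0.036, 1.0 ± 0.035 and 1.33 ± 0.036 with SR4, lonidamine and the combination in PANC1 and 0.87 ± 0.032, 0.91 ± 0.032 and 1.55 ± 0.032 in BXPC3 (largest of the 6 adjusted p = 1.06e-18, edgeR quasi-likelihood F-test, Benjamini-Hochberg). It was the largest rise of any member under the combination in each line. The gene lies on chromosome 17 at 41688885 to 41692668 on the plus strand. EIF1B, its paralog on chromosome 3 at 40309684 to 40312424, had 56.2, 50.9 and 55.1 CPM with SR4, 32.04, 36.4 and 32.2 CPM with lonidamine and 51.2, 48.4 and 54.2 CPM with the combination, against 22.2, 21.8 and 23.2 CPM with vehicle in PANC1. Its BXPC3 levels were 30.4, 28.8 and 24.3 CPM with SR4, 28.3, 27.5 and 26.1 CPM with lonidamine and 36.8, 36.7 and 37.4 CPM with the combination, against 19.2, 19.00 and 17.4 CPM with vehicle. The treated libraries of EIF1B lay above the vehicle libraries in all 6 groups, with log2 changes between 0.56 with lonidamine in BXPC3 and 1.27 with SR4 in PANC1.

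The partners of EIF1 at the start codon varied in direction. EIF1AX, the gene of eIF1A, fell in all 6 comparisons, most with SR4 in PANC1 at -0.86 ± 0.055 log2 and least with lonidamine in BXPC3 at -0.21 ± 0.049. It had 49.7, 51.9 and 54.9 CPM with SR4, against 95.5, 93.9 and 95.9 CPM with vehicle in PANC1. EIF1AD, named for its eIF1A-like domain, passed the test in PANC1 under the combination and under neither single compound, rising there by 0.76 ± 0.059 log2, with 0.0066 and -0.14 for SR4 and lonidamine. In BXPC3 it likewise rose with the combination, by 0.35 ± 0.060 log2. EIF5, the activator of GTP hydrolysis on eIF2, rose with lonidamine in PANC1 by 0.38 ± 0.035 log2, and with SR4 and the combination in BXPC3 by 0.34 ± 0.033 and 0.53 ± 0.033. EIF5B, the GTPase of subunit joining, rose by 0.15 and 0.43 log2 with SR4 and the combination in PANC1 and fell by 0.34 and 0.52 in BXPC3. EIF1AY was not tested.

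Of the 3 subunits of eIF2, EIF2S2 (beta) rose in all 6 comparisons. EIF2S2 (chromosome 20, 34088298 to 34112332, minus strand) had 502, 481 and 503 CPM with SR4, 376, 403 and 402 CPM with lonidamine and 518, 511 and 503 CPM with the combination, against 230.2, 223 and 217 CPM with vehicle in PANC1. BXPC3 libraries held 431, 439 and 436 CPM with SR4, 505, 484 and 483 CPM with lonidamine and 434, 448 and 428 CPM with the combination, against 357, 335 and 352 CPM with vehicle. In PANC1 the combination lay close to SR4 alone, at 1.19 ± 0.038 and 1.15 ± 0.038 log2 over vehicle, and in BXPC3 lonidamine gave the highest values, at 0.50 ± 0.034 log2. The rise was larger in PANC1 by 0.82 ± 0.053 log2 with SR4 and 0.35 ± 0.053 with lonidamine (adjusted p = 3.32e-16 and 6.15e-07, edgeR quasi-likelihood F-test, Benjamini-Hochberg). EIF2S1, the alpha subunit that carries the regulatory phosphorylation site, had 222, 215 and 225 CPM with the combination, against 152, 144 and 149 CPM with vehicle in PANC1. In BXPC3 it had 177, 171 and 169.8 CPM with the combination, against 209, 217 and 236 CPM with vehicle. It thus rose in one line and fell in the other, by 0.57 ± 0.041 and -0.35 ± 0.045 log2. EIF2S3, the gamma subunit, changed by 0.22 log2 with the combination in PANC1 and 0.26 in BXPC3, and showed values between -0.082 and 0.13 log2 with either compound alone.

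EIF2A and EIF2D encode factors that can deliver tRNA to the ribosome without eIF2. EIF2A had 244, 251 and 241 CPM with SR4, 113, 115 and 117 CPM with lonidamine and 282, 279.9 and 292 CPM with the combination, against 144, 135 and 139 CPM with vehicle in PANC1. Its BXPC3 levels were 129.99, 131 and 121 CPM with SR4, 116, 106 and 120.1 CPM with lonidamine and 198, 187 and 191 CPM with the combination, against 114, 123 and 119 CPM with vehicle. In PANC1 EIF2A rose by 0.82 ± 0.039 log2 with SR4 and 1.03 ± 0.039 with the combination and fell by 0.28 with lonidamine. In BXPC3 neither compound alone passed the test (0.10 and -0.053 log2), and the combination gave a rise of 0.70 ± 0.048 (adjusted p = 4.25e-13, edgeR quasi-likelihood F-test, Benjamini-Hochberg). EIF2D rose by 0.33, 0.22 and 0.26 log2 in PANC1 and by 0.38 with SR4 in BXPC3.

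Of the 5 genes of eIF2B, the exchange factor that recharges eIF2 with GTP, 3 moved in opposite directions in the lines under the combination. All 5 rose under the combination in PANC1, by 0.73 ± 0.058 (EIF2B1), 1.06 ± 0.063 (EIF2B2), 0.61 ± 0.072 (EIF2B3), 0.71 ± 0.063 (EIF2B4) and 0.39 ± 0.055 (EIF2B5) log2. In BXPC3, EIF2B2 and EIF2B4 rose, by 0.40 ± 0.060 and 0.59 ± 0.083, and the other 3 fell, by 0.48 (EIF2B1), 0.91 (EIF2B3) and 0.43 (EIF2B5). These counts were the same when libraries were scaled by RLE factors or by total count and with DESeq2. Over all genes, 40.1% rose and 40.9% fell with the combination in PANC1, and 39.7% and 39.5% in BXPC3. The BXPC3 counts of eIF2B thus lay near the background. EIF2B3 (chromosome 1, 44850522 to 44986722, minus strand), the gamma subunit, had 43.3, 48.8 and 45.2 CPM with SR4, 34.9, 38.6 and 40.4 CPM with lonidamine and 58.3, 62.6 and 64.97 CPM with the combination, against 44.9, 36.2 and 40.7 CPM with vehicle in PANC1. BXPC3 libraries held 19.96, 20.1 and 18.3 CPM with SR4, 25.4, 24.2 and 21.7 CPM with lonidamine and 13.9, 12.6 and 11.7 CPM with the combination, against 24.7, 23.3 and 23.7 CPM with vehicle. EIF2B1 (chromosome 12, 123620406 to 123633766, minus strand), the alpha subunit, had 122, 135 and 138 CPM with the combination, against 84.4, 79.1 and 73.1 CPM with vehicle in PANC1. In BXPC3 EIF2B1 had 55.7, 51.8 and 50.9 CPM with the combination, against 78.1, 71.6 and 70.5 CPM with vehicle. For both genes the combination and vehicle libraries did not overlap in either line. The response to the combination differed between the lines by 1.47 ± 0.13 log2 for EIF2B3 (adjusted p = 4.13e-13, edgeR quasi-likelihood F-test, Benjamini-Hochberg) and by 1.17 ± 0.085 for EIF2B1 (adjusted p = 5.68e-15, edgeR quasi-likelihood F-test, Benjamini-Hochberg). For EIF2B5, the catalytic epsilon subunit, the deposited coordinates span further genes, EIF4G1 among them, so its counts are less certain.

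Under the combination, 9 of the 45 EIF genes tested in both lines moved in opposite directions, with a called difference between the lines, where 16.3% of all genes did. Besides EIF2B1, EIF2B3, EIF2B5 and EIF2S1 they were EIF3E, EIF3I, EIF3J, EIF5B and EIF6. EIF5B, EIF3I and EIF3J rose in PANC1 and fell in BXPC3, while EIF3E and EIF6 fell in PANC1 and rose in BXPC3. The log2 changes in PANC1 and BXPC3 were 0.43 ± 0.040 and -0.52 ± 0.048 for EIF5B, 0.19 ± 0.037 and -0.30 ± 0.039 for EIF3I, and 0.27 ± 0.037 and -0.093 ± 0.040 for EIF3J, a loosely bound subunit. They were -0.10 ± 0.036 and 0.38 ± 0.038 for EIF3E. Of these 9, EIF3J dropped out without combination library 2 or 3 or vehicle library 2 or 3 of BXPC3, EIF6 without combination library 1 or vehicle library 2 or 3 of BXPC3, and EIF3E without combination library 3 of PANC1. EIF3J also dropped out with the replicate block, EIF6 with scaling by total count and EIF3E without the filter on low counts. With SR4 the genes of opposite direction were EIF2B1, EIF2B3, EIF2S1, EIF3I and EIF5B, 5 genes beside 11.5% of all genes, all higher in PANC1 and lower in BXPC3. Without vehicle library 3 of PANC1, or with DESeq2 or scaling by total count, EIF2B1 and EIF2B3 dropped out and 3 remained. EIF2B3 alone dropped out without SR4 library 2 or 3, lonidamine library 2, combination library 2 or 3 or vehicle library 2 of PANC1, and with the replicate block. EIF2B1 alone dropped out without SR4 library 2, the unnumbered SR4 library, combination library 2 or vehicle library 1 of BXPC3. With lonidamine they were EIF3E, EIF3J, EIF4B and EIF4G2, 4 genes beside 7.64% of all genes, all lower in PANC1 and higher in BXPC3. EIF4G2 dropped out without library 1 of lonidamine in PANC1, with scaling by total count and without the filter on low counts. Out of 45 members, the counts of opposite direction with each treatment lay near the shares over all genes, and nothing is read from them.

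**Figure D4:**
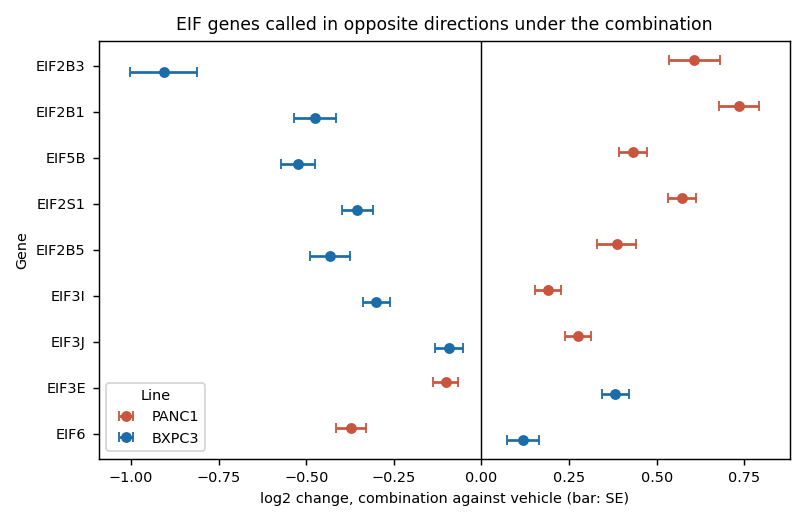
Log2 change with SE of the 9 EIF genes called in opposite directions under the combination, PANC1 in red and BXPC3 in blue, each against its own vehicle. The members to the right of 0 rose, and EIF2B3 has the widest gap between the lines.

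Members of opposite direction are by definition among those whose response differed between the lines. The SR4 response was higher in PANC1 for 20 of 46 members and lower for 11, where 26.2% and 24.9% of all 13930 genes were. For lonidamine the counts were 9 and 18 (23.5% and 18.2%), or 10 and 12 when scaled by total count only, and for the combination 20 and 15 (31.7% and 30.2%). With SR4 the most positive differences were EIF2S2, EIF2A at 0.71 ± 0.064 log2 and EIF1B at 0.69 ± 0.12, and the most negative EIF4E2, EIF4EBP2 at -0.59 ± 0.059 and EIF4EBP1 at -0.55 ± 0.087. With lonidamine the most positive were EIF2S2, EIF5 at 0.35 ± 0.048 and EIF4EBP2 at 0.28 ± 0.057, and the most negative EIF5A2 at -0.62 ± 0.089, EIF4B at -0.43 ± 0.046 and EIF3E at -0.42 ± 0.055. With the combination EIF2B3, EIF2B1 and EIF5B led upward, EIF5B at 0.92 ± 0.065, and EIF4E2, EIF5A2 at -0.95 ± 0.10 and EIF4G2 downward.

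eIF3 is the large scaffold that holds the small ribosomal subunit and meets eIF4G. Of its 13 tested genes, 9 rose and 0 fell with SR4 in PANC1, 4 rose and 5 fell with lonidamine, and 9 rose and 1 fell with the combination. Over all genes 35% and 36.7% did with SR4, 35% and 34.2% with lonidamine and 40.1% and 40.9% with the combination, so the lonidamine counts lay near the background. Scaled by total count only, lonidamine in PANC1 gave 5 and 3. In BXPC3 the same counts were 7 and 3 with SR4, 9 and 3 with lonidamine, and 8 and 4 with the combination, beside 33.4% and 33.9%, 34.8% and 32.7%, and 39.7% and 39.5% of all genes. EIF3D, whose protein can bind the cap of selected messages, rose by 0.73, 0.15 and 0.71 log2 in PANC1 and by 0.26, 0.44 and 0.60 in BXPC3. EIF3F had 467, 468 and 452 CPM with SR4 and 437, 437 and 439 CPM with the combination, against 264, 271 and 266 CPM with vehicle in PANC1. EIF3H, which with EIF3F carries an MPN domain, rose by 0.60 log2 with the combination in PANC1 and 0.46 in BXPC3. EIF3M rose by 0.89 ± 0.039 log2 with the combination in PANC1, the largest rise of an eIF3 gene in that line, and by 0.11 ± 0.036 in BXPC3.

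The core subunits did not move together. EIF3A, the largest subunit, rose by 0.27 ± 0.033 log2 with the combination in PANC1 and 0.48 ± 0.033 in BXPC3. EIF3B, its core partner, fell by 0.61 log2 with the combination in BXPC3 and showed 0.045 in PANC1 without passing the test. EIF3K, so high in PANC1, showed 0.0077 and 0.069 log2 with SR4 and the combination there, neither past the test. With lonidamine in PANC1 it changed by -0.12 log2, past the test. In BXPC3 EIF3K fell by 0.29, 0.29 and 0.42 log2 with SR4, lonidamine and the combination. EIF3G and EIF3L rose in BXPC3 under all 3 treatments, to at most 0.45 and 0.60 log2. EIF3C passed the test once in 6, with lonidamine in BXPC3 at 0.28 ± 0.11 log2. EIF3C has a near-identical copy, EIF3CL, with 51 counts in PANC1 and 44 in BXPC3, so the split of reads between them is uncertain.

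EIF5A fell in all 6 comparisons. EIF5A (chromosome 17, 7306999 to 7312463, plus strand) had 464, 477 and 443 CPM with SR4, 412, 429 and 401 CPM with lonidamine and 363, 344 and 353 CPM with the combination, against 608, 569 and 577 CPM with vehicle in PANC1. In BXPC3 it had 533, 518 and 555 CPM with SR4, 575, 559 and 535 CPM with lonidamine and 375, 368 and 374 CPM with the combination, against 752, 721 and 676 CPM with vehicle. The combination gave the lowest values in each line, -0.73 ± 0.038 log2 relative to vehicle in PANC1 and -0.94 ± 0.039 in BXPC3 (adjusted p = 3.83e-16 and 5.25e-18, edgeR quasi-likelihood F-test, Benjamini-Hochberg). EIF5A2 followed another course, with 55.9, 55.4 and 57.2 CPM with SR4, 82.4, 86.9 and 89.4 CPM with lonidamine and 52.5, 47.2 and 47.8 CPM with the combination, against 84.00, 79.6 and 82.7 CPM with vehicle in PANC1. In BXPC3 EIF5A2 had 29.3, 27.5 and 30.2 CPM with SR4, 50.5, 51.9 and 49.1 CPM with lonidamine and 32.3, 38.1 and 32.6 CPM with the combination, against 27.9, 30.5 and 33.4 CPM with vehicle, a rise with lonidamine of 0.72 ± 0.073 log2 (adjusted p = 1.87e-09, edgeR quasi-likelihood F-test, Benjamini-Hochberg). Per kilobase, EIF5A2 over EIF5A with lonidamine stood at 0.105 ± 0.00631 and with vehicle at 0.0705 ± 0.00132 in PANC1, and at 0.0456 ± 0.00136 and 0.0216 ± 0.00313 in BXPC3. EIF5AL1, a near copy of EIF5A that could share its reads, fell by 0.84 log2 with the combination in PANC1 and by 0.87 in BXPC3. EIF6, which keeps free large subunits from joining, rose with lonidamine in both lines, by 0.38 ± 0.040 log2 in PANC1 and 0.38 ± 0.045 in BXPC3. Under the combination it fell by 0.37 log2 in PANC1 and rose by 0.12 in BXPC3, where the adjusted p was 0.0215 (edgeR quasi-likelihood F-test, Benjamini-Hochberg). In 4 of 18 alternatives this rise of EIF6 did not pass the test, with an adjusted p of at most 0.21.

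Set against the single compounds, the combination differed from lonidamine at more members than from SR4 in PANC1. Of 45 members, 27 were higher with the combination than with lonidamine and 12 lower (37.1% and 37.5% of all genes), and 18 were higher than with SR4 and 10 lower (33.2% and 33.4%). In BXPC3, 17 of 46 were higher with the combination than with lonidamine and 23 lower (30.1% and 30.7%), and 20 were higher than with SR4 and 14 lower (30.3% and 30.5%). Scaled by total count only, 16 members were higher than with SR4 in BXPC3 and 20 lower, which turned the balance round. Over all genes, the share of calls that were higher than with SR4 in BXPC3 was 49.9%, and 39.5% when libraries were scaled by total count only. EIF1 was higher with the combination than with SR4 by 0.12 ± 0.034 log2 in PANC1 and by 0.68 ± 0.031 in BXPC3. EIF4EBP1 was lower with the combination than with lonidamine by 0.40 log2 in PANC1 and 0.38 in BXPC3, and than with SR4 by 0.29 and 0.40.

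An interaction term asked whether the combination equalled the sum of the single changes on the log2 scale. The labels give no doses for the combination, so the comparison with that sum holds only if each compound was at its single dose. In PANC1 22 of 45 members lay above that sum and 14 below it, where 30.8% and 30% of all genes did. In BXPC3 11 of 46 lay above and 13 below, beside 23.7% and 25.5% of all genes, and scaling by total count only gave 7 and 17. EIF4EBP1 lay furthest below in each line, at -1.55 ± 0.10 log2 in PANC1 and -2.08 ± 0.065 in BXPC3 (adjusted p = 1.46e-13 and 1.93e-19, edgeR quasi-likelihood F-test, Benjamini-Hochberg). In PANC1 EIF1 at -0.87 ± 0.049 and EIF4A2 at -0.78 ± 0.061 came next below the sum, and EIF1AD at 0.89 ± 0.087, EIF4EBP2 at 0.89 ± 0.060 and EIF2B1 at 0.83 ± 0.084 lay furthest above it. In BXPC3 EIF2B3 at -0.60 ± 0.13 and EIF2S2 at -0.49 ± 0.048 came next below, and EIF2A at 0.65 ± 0.069, EIF2S3 at 0.36 ± 0.055 and EIF4EBP2 at 0.33 ± 0.057 lay furthest above. A value above the sum is no rise in itself: EIF4EBP2 stayed below vehicle with the combination in both lines.

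Messages that open with a C followed by pyrimidines, the 5′ terminal oligopyrimidine tract, are known from ribosomal protein and elongation factor genes, whose translation answers to mTOR signalling through 4E-BPs and LARP1. RefSeq promoter sequences of GRCh38.p14, 250 bases before and 50 after each start, were found for 43 of the 51 members. A start with C and at least 4 further C or T, read on the gene's own strand, stood at 9 of these 43 and at 4.04% of all 27305 promoters. Here and for the motifs below, all promoters include many genes not tested in these lines, while most members were tested. The shares thus have unlike backgrounds. The 9 are EIF2A, EIF2D, EIF2S3, EIF3D, EIF3F, EIF3K, EIF3M, EIF4A2 and EIF4B. The first 6 of the following lines show members with such a start, and the last 4 show members that fell in all 6 comparisons and lack it. The lines are a selection. Not shown are EIF2D and EIF2S3, which rose in 4 and 3 comparisons, and EIF3K, which rose in 0 and fell in 4. EIF1 and EIF1B, which rose in all 6, lack such a start and are not shown either. Each line runs from 15 bases before the annotated start to 15 bases after it, 5′ to 3′, and capitals mark the pyrimidine run that begins at the start.
EIF3D (chr22:36529152-36529181, minus strand): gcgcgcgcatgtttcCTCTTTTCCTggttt
EIF3F (chr11:7987322-7987351, plus strand): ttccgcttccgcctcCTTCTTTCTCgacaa
EIF2A (chr3:150546772-150546801, plus strand): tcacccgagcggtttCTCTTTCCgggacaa
EIF3M (chr11:32583816-32583845, plus strand): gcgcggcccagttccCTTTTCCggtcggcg
EIF4B (chr12:53006441-53006470, plus strand): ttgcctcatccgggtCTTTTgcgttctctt
EIF4A2 (chr3:186783562-186783591, plus strand): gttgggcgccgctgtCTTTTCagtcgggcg
EIF4E (chr4:98929119-98929148, minus strand): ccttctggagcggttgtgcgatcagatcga
EIF4G1 (chr3:184314591-184314620, plus strand): tctgtgcggggagccggaaatggttgtgga
EIF5A (chr17:7306984-7307013, plus strand): atgggtgggaacccgaccacactagcgcgc
EIF1AX (chrX:20141824-20141853, minus strand): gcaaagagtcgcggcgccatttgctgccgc

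The members with a pyrimidine start had a higher median change than the others in each comparison. In PANC1, 7 of 9 rose and 0 fell with SR4, at a median of 0.61 log2, while 9 of the other 29 members with a promoter rose and 11 fell, at a median of -0.022. With lonidamine 6 of 9 rose and 3 fell (median 0.15), and of the others 5 rose and 18 fell (median -0.17). With the combination 8 of 9 rose and 0 fell (median 0.59), and of the others 13 rose and 11 fell (median 0.034). Over all genes in PANC1, 35% and 36.7% rose and fell with SR4, 35% and 34.2% with lonidamine, and 40.1% and 40.9% with the combination. The counts of the others with SR4 and the combination lay near these shares. The ribosomal protein genes, counted further below, fell more often than they rose with the combination in PANC1. In BXPC3 the 9 had medians of 0.25, 0.021 and 0.44 log2 with SR4, lonidamine and the combination, and the other 30 had -0.17, -0.15 and -0.30. Of the 9, 5 rose and 1 fell with SR4, 4 and 1 with lonidamine, and 7 and 1 with the combination. Of the other 30, the counts were 7 and 16, 10 and 14, and 9 and 18. Over all genes in BXPC3 the shares were 33.4% and 33.9%, 34.8% and 32.7%, and 39.7% and 39.5%. With lonidamine the numbers that rose lay near those shares. Of the 7 members that fell in all 6 comparisons, 0 had such a start, and of the 5 members with a promoter that rose in all 6, 3 had one. The search was chosen with results of these data known and is a description of annotated starts, with no test.

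CACGTG, the E-box letters read by MYC and related factors, was found on either strand within 11 of the 43 member promoters. It was found within 7.43% of all promoters, of tested genes or not. The 11 are EIF1B, EIF2B3, EIF3F, EIF3K, EIF4A3, EIF4B, EIF4E, EIF4EBP3, EIF4G1, EIF4H and EIF5A2. They hold genes that rose in all 6 comparisons (EIF1B and EIF3F) and genes that fell in all 6 (EIF4A3, EIF4E and EIF4G1). The following windows of 30 bases show it in capitals for a pair of genes of each direction, EIF4B having risen in 5 of 6 comparisons.
EIF4E (chr4:98929341-98929370, minus strand): ctacccatcggcCACGTGaccagtcctttt
EIF4G1 (chr3:184314450-184314479, plus strand): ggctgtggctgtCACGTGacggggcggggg
EIF4B (chr12:53006422-53006451, plus strand): gcccgctataatCACGTGattgcctcatcc
EIF1B (chr3:40309641-40309670, plus strand): gcgcgggacggtCACGTGggaggggccgcg
TGATGNAA, letters of the element that ATF4 shares with C/EBP factors, was found in 0 of the 43 windows and in 3.67% of all promoters. EIF2S2, EIF3A, EIF3CL, EIF3E, EIF3G, EIF3H, EIF3L and EIF4EBP1 were not searched, and an element outside these windows would not be seen.

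Around the EIF genes, 23 further regulators of initiation were all tested. In PANC1, 7 rose and 8 fell with SR4, 5 and 7 with lonidamine, and 10 and 11 with the combination, with lonidamine turning to 7 and 6 when scaled by total count only. In BXPC3 the counts were 6 and 8 with SR4, 9 and 6 with lonidamine, and 11 and 10 with the combination. Over all genes the shares that rose and fell were 35% and 36.7%, 35% and 34.2%, and 40.1% and 40.9% in PANC1 and 33.4% and 33.9%, 34.8% and 32.7%, and 39.7% and 39.5% in BXPC3 with SR4, lonidamine and the combination. Most of the regulators' shares in PANC1 lay near these, and nothing is read from their counts. PDCD4, whose protein blocks the eIF4A helicase, rose in all 6, by 1.93, 1.46 and 2.51 log2 in PANC1 and 0.72, 0.25 and 0.85 in BXPC3 with SR4, lonidamine and the combination. MKNK2, a kinase of eIF4E, changed by 0.73, 0.86 and -0.42 log2 in PANC1 and 1.19, 1.03 and 1.86 in BXPC3, so it rose in 5 comparisons and fell under the combination in PANC1. DDX3X, a helicase that helps structured messages, changed by -1.10, -0.45 and -1.66 log2 in PANC1 and -0.42, -0.056 and -0.31 in BXPC3, where lonidamine in BXPC3 did not pass the test. BZW2, an eIF5 mimic, fell in all 6, most at -1.42 log2 with the combination in BXPC3.

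The elongation and termination factors numbered 14 tested in PANC1 and 13 in BXPC3. In PANC1, 7 rose and 2 fell with SR4, 5 and 6 with lonidamine, and 6 and 4 with the combination. In BXPC3 the counts were 6 and 4 with SR4, 7 and 2 with lonidamine, and 7 and 4 with the combination. Beside the shares over all genes just given for the same comparisons, the numbers that rose with lonidamine and with the combination in PANC1 lay near the background. EEF1A1, which brings aminoacyl-tRNA to the ribosome, rose by 0.61, 0.29 and 0.20 log2 in PANC1 and 0.77, 0.65 and 0.97 in BXPC3. EEF2K, the kinase that halts elongation factor 2, fell in all 6, by 0.86 log2 with the combination in PANC1 and 0.79 in BXPC3. Of 11 mitochondrial translation factors, 9 rose and 1 fell with the combination in PANC1, and 3 rose and 4 fell in BXPC3. GFM1, the mitochondrial elongation factor G, changed by 0.11 and -1.15 log2 with the combination in PANC1 and BXPC3.

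Of 82 tested cytosolic ribosomal protein genes in PANC1, 63 rose and 4 fell with SR4, 12 and 25 with lonidamine, and 13 and 40 with the combination. In BXPC3 the counts were 69 and 2 with SR4, 54 and 9 with lonidamine, and 61 and 10 with the combination. Over all genes, 35% and 36.7% rose and fell with SR4 in PANC1, 35% and 34.2% with lonidamine, and 40.1% and 40.9% with the combination. In BXPC3 those shares were 33.4% and 33.9%, 34.8% and 32.7%, and 39.7% and 39.5%. The ribosomal protein genes thus rose mostly in PANC1 with SR4 and in BXPC3 under each treatment, and fell more often than they rose in PANC1 with the combination. In PANC1 with lonidamine more fell than rose, though the share that fell lay near that of all genes. There 23 rose and 18 fell when libraries were scaled by total count only. Their median change with the combination was -0.11 log2 in PANC1 and 0.28 in BXPC3. Of 20 cytosolic tRNA synthetase genes, 17 rose and 2 fell with the combination in PANC1, and 14 and 5 in BXPC3. Of 15 listed targets of ATF4, ATF4 itself included, 13 rose with SR4, 14 with lonidamine and 13 with the combination in PANC1, and 14 with each treatment in BXPC3. TRIB3, a pseudokinase among them, changed by 4.81, 3.73 and 4.66 log2 in PANC1 and 4.43, 4.10 and 5.09 in BXPC3. ATF5 fell in all 6 comparisons. These lists were drawn up with results of these data known.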

How the data were processed

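Messenger RNA of 24 libraries was measured, 3 for each of 4 treatments in PANC1 and BXPC3. The authors deposited whole read counts per gene, unnormalised, in 1 table per line, with positions and a gene length. The submitters' processing notes name GRCh38, DESeq2, Partek and STAR 2.7.8a, with no roles given. Per the labels' protocols, RNA with a RIN over 7 went into KAPA mRNA Hyper Prep libraries. The annotation, the counting tool and whether counting used strand are not stated in the labels, so reads of overlapping or near-identical genes may be shared between rows. The third SR4 column of BXPC3 carries a number that matches no sample title and was kept as an unnumbered replicate. All value columns were used, and 0 were left out.

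Counts were scaled by TMM and filtered with filterByExpr (minimum count 10) in edgeR 4.0.16, which kept 12514 genes in PANC1 and 12920 in BXPC3. The 4 groups of a line entered 1 quasi-likelihood fit with 8 residual degrees of freedom, and all 24 libraries entered a fit with 16 for differences between lines, which kept 13930 genes. P-values were adjusted by Benjamini-Hochberg over all genes of a fit, at 0.05. The SE is the log2 change over the square root of F. CPM are TMM-scaled within a line, or over 24 libraries where lines are compared under vehicle. Between replicates the coefficient of variation was 3.79% in PANC1 and 3.95% in BXPC3, and chi-square per degree of freedom of counts within groups was 1.35 to 3.77 and 1.31 to 3.40, so no libraries were merged. SDs are over 3 libraries.

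The members, the gene lists and the searched motifs were chosen with earlier results of these data known. Values are given for the 4 largest rises and falls of each treatment against vehicle with a mean of at least 5 CPM, for a panel of members picked for their roles, and for the 3 most positive and negative members of each line difference and interaction. Simulated counts were used to check the scripts. Promoters came from RefSeq on GRCh38.p14. Alternatives were RLE scaling, total-count scaling, DESeq2 1.42.0, no filter beyond 1 count, a replicate block, only the groups compared, and each library left out.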

Additional observations from a re-analysis of the deposited data

Results flagged for a closer look

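Every result below was picked out because the response to a treatment differed between PANC1 and BXPC3 by a test of the difference itself, edgeR's quasi-likelihood test on all 24 libraries. Groups of 3 libraries are too small for a check of single outlying libraries. With SR4 31 of 46 EIF genes differed in response, and 5 of them moved in opposite directions. The 5 include EIF2S1, the phosphorylated subunit of eIF2, at 0.65 log2 (PANC1 minus BXPC3), EIF5B, the subunit-joining GTPase, at 0.48 and EIF2B3 of the exchange factor at 0.47. With lonidamine 27 differed and 4 moved in opposite directions, among them EIF4B, the helicase cofactor, at -0.43, EIF3E at -0.42 and EIF3J at -0.33. With the combination 35 differed and 9 moved in opposite directions, led by EIF2B3 at 1.47, EIF2B1 at 1.17 and EIF5B at 0.92. The 5, 4 and 9 members of opposite direction, of 45 tested in both lines, stand beside 11.5%, 7.64% and 16.3% of all genes. They lie near those shares, so nothing is read from these 3 counts. Over all 13930 genes the response was higher in PANC1 for 26.2% and lower for 24.9% with SR4, 23.5% and 18.2% with lonidamine, and 31.7% and 30.2% with the combination.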

How the results depend on the processing

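Leaving out each library in turn, RLE or total-count scaling, DESeq2, no filter beyond 1 count, a replicate block and fits of only the groups compared were tried on the counts of members called, the last only within a line. Reversal was checked for the members with the largest changes and for the panel, and no called change of theirs reversed its direction. The other called members were not checked for it. The alternatives other than leaving out libraries moved the median of all genes by -0.0816 to 0.0846 log2. The count of members above the sum of single changes in BXPC3 was 7 with total-count scaling and 11 as reported, and the count below it was 17 and 13. The members with opposite SR4 responses numbered 3 with total-count scaling, 3 with DESeq2 and 3 to 5 without 1 library, where 5 were reported. That count was 3 without vehicle library 3 of PANC1. The causes were not tested. The 8 members that rose in all 6 comparisons were kept in every alternative except fits of only the groups compared, which were not run for these counts, and the count was 8 to 10. The 7 that fell were kept in the same alternatives, with 7 or 8. These counts and those of opposite directions were added to the planned set after the data were seen. Of the named members, EIF3A (SR4), EIF5A2 and EIF6 (combination) and EIF5AL1 (combination against each compound) in BXPC3, and EIF2B5 (SR4) and EIF5A2 (lonidamine) in PANC1, crossed the threshold in at least 1 alternative. Same-numbered libraries did not deviate together (0 of 18 pairs in PANC1 and 0 of 15 in BXPC3 with a correlation over 0.1, and 3 of 12 and 4 of 11 libraries closest to their own number), so the numbers were not taken as pairs. With the replicate block, 27 members rose and 12 fell with the combination in PANC1, and 23 rose and 18 fell in BXPC3, against 27, 12, 23 and 19 without it, and no count moved by over 1.5 times. At this depth 5 members had too few counts for the filter in either line, so no change of theirs could be seen, and whether depth or the counting of overlapping genes set this was not tested.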
